A study of Mus musculus with 6 samples.

Results

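Most of the genes described here encode core proteins of the spliceosome or the SR proteins that guide it. All were taken from the annotation of the array by symbol: a gene belongs if its symbol starts with Snrp, Sf3a, Sf3b, Srsf, Prpf or Lsm followed by a letter or digit. This gave 46 genes of the 12393 genes on the array that have a probe set with a single symbol, and each gene is represented by the probe set with the highest mean signal over the 6 arrays. Of the 46 genes, 43 lay in the upper 50% of probe sets by mean signal and were tested, as were 6770 of all genes. Snrpn, Prpf40b and Lsm14a lay below that level and are given as signals without a test. The symbol rule also takes in LSm genes with other roles, given below, among them Lsm1, Lsm10, Lsm12 and Lsm14b. The name splicing genes is used here for the whole set, these included.

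The samples were colon epithelium of mice. The control group ate a standard diet, and the treated group ate a diet with 0.4% UDCA, which is ursodeoxycholic acid, a water-loving bile acid given to patients with some liver diseases. Each group held 3 arrays, and each array carried RNA pooled from 2 animals (pools 1+2, 3+4 and 5+6), so that 6 animals stood behind each group and differences between the animals of a pool cannot be seen. The sources used here give no strain, age, sex or length of feeding, and the labels also carry the tag IEC-6, the name of a rat intestinal cell line, beside the mouse tissue.

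The spliceosome removes introns from pre-mRNA. It is built from small nuclear ribonucleoproteins (snRNPs), each a small nuclear RNA wrapped in a ring of Sm or LSm proteins together with proteins of its own: U1 marks the 5' splice site, U2 the branch point, and the U4/U6.U5 tri-snRNP brings in the parts that form the catalytic centre. SR proteins carry an RNA-binding domain and a tail rich in arginine and serine; they bind exons, recruit U1 and U2 and influence which exons are kept. Nearly all cells need this machinery, the renewing epithelium of the colon included.

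Signals are given after quantile normalization, which brings all 6 arrays to 1 distribution, because the deposited signals had array medians from 67.4 to 87.2. Log2 fold changes are UDCA minus control on log2(signal + 16), with the standard error (SE) of limma, a linear model with a variance shared across genes, and p-values adjusted by Benjamini-Hochberg over all 11313 probe sets tested. The log2 scale with this pseudocount understates the change of dim genes. Colon epithelium markers were bright (11 of 11 measured markers above the filter, with group mean signals from 372 to 10801), while 0 of 8 leukocyte, 0 of 7 fibroblast and smooth muscle, 0 of 3 endothelial and 0 of 4 neuron and glia markers lay above it, with group mean signals of at most 50.4. The summed signal of the leukocyte markers was 111 to 119 on control arrays and 104 to 156 on UDCA arrays, that of the fibroblast and smooth muscle markers 135 to 151 and 116 to 143, that of the endothelial markers 42.6 to 50.4 and 49.6 to 59.9, and that of the neuron and glia markers 48.6 to 69.0 and 36.7 to 51.1. In RNA taken from many cells together, fewer cells of a type and less RNA per cell cannot be told apart.

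Splicing genes as a group differed little between the diets, with a slight lean towards higher signals under UDCA. None of the 43 tested genes passed an adjusted p of 0.05 in limma, higher or lower. Over all 6770 genes the shares that passed were 0.0148% higher (1 gene) and 0% lower. At an unadjusted p under 0.05, 7 splicing genes were on the higher side and 1 on the lower side, which is 16.3% and 2.33% of them; over all genes the shares were 7.28% and 7.1%. All 3 UDCA arrays lay above all 3 control arrays for 10 of the 43 genes, 23.3%, beside 11.1% of all genes. They lay below for 1 gene, 2.33%, beside 8.64% of all genes. Lsm10 and Lsm12, whose roles lie elsewhere, are among the 7 genes and, with Lsm1, among the 10. The median log2 fold change was 0.09, with 31 of 43 values positive, and over all genes it was 0.00, with 50.2% positive. On the deposited scale 37 of the 43 values were positive, 86.0%, beside 64.7% of all genes, and the medians were 0.20 and 0.08. There 0 splicing genes passed after adjustment (all genes 0.547% higher and 0.236% lower), 4 had an unadjusted p under 0.05 on the higher side and 0 on the lower side (4.7% and 2.91% of all genes), and groups did not overlap for 3 higher and 0 lower (3.61% and 4% of all genes).

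The differences were small. The log2 fold changes ran from -0.34 for Srsf5 to 0.60 for Lsm12. Of the 43 genes, 39 lay between the 5th and the 95th percentile of all genes, which are -0.40 and 0.35, and 4 lay above. With a median SE of 0.11, the 95% interval lay within 0.5 log2 units of 0 for 33 genes. For 8 genes it reached beyond 0.5 upwards and for 2 downwards.

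**Figure D1:**
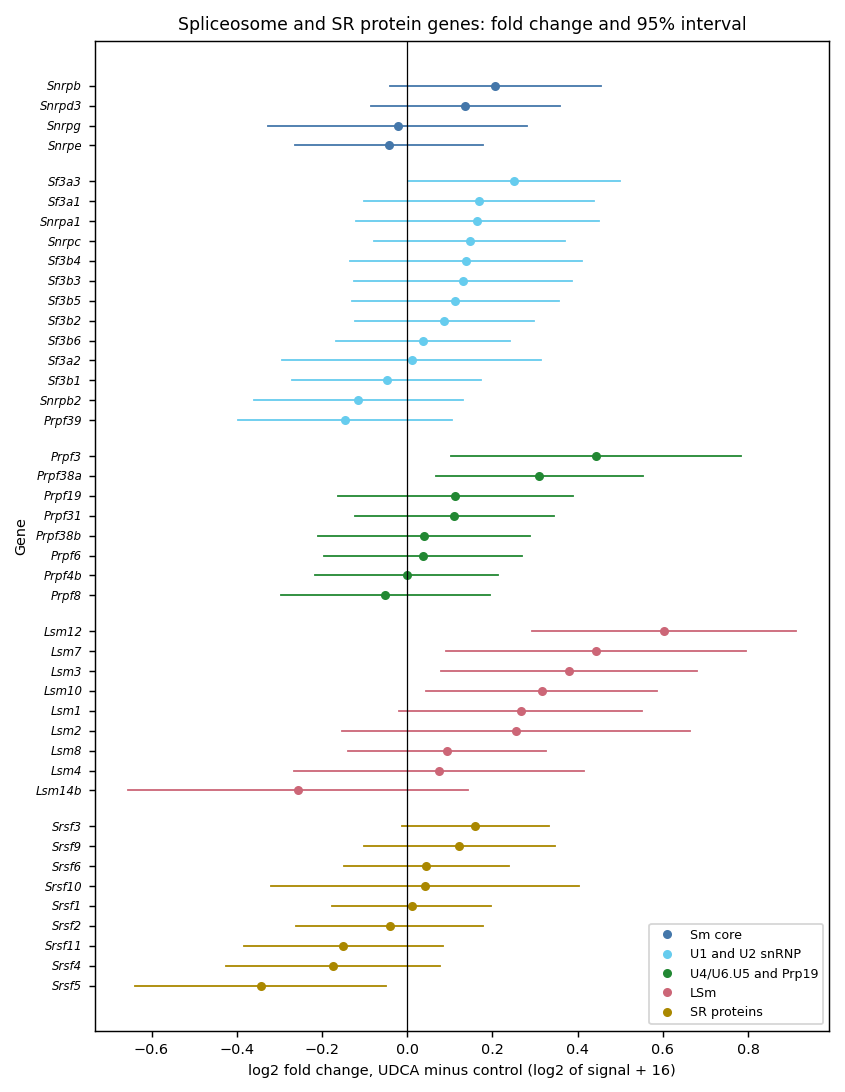
Log2 fold change (UDCA minus control, x axis) of the 43 tested splicing genes (y axis, by role). Points are limma estimates and bars their 95% intervals, from 3 arrays per group; most bars cross 0, and Lsm12 at 0.60 and Srsf5 at -0.34 mark the ends.

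Control pool 3+4 held the lowest signal of all 6 arrays for 24 of the 43 genes, 55.8%, while it held the lowest signal of 19.2% of all genes. The genes were highest in UDCA pool 3+4 for 13 of 43 and in UDCA pool 1+2 for 11 of 43, 30.2% and 25.6%, beside 19.3% and 16.8% of all genes. Without control pool 3+4 the median log2 fold change of the splicing genes was 0.04, and 4 genes in place of 7 had an unadjusted p under 0.05 on the higher side, while the share of all genes there went from 7.28% to 4.4%. The ratio of 3' to 5' signal of the Gapdh control probe sets was 0.703 to 0.739 on control arrays, lowest in pool 3+4, and 0.724 to 0.794 on UDCA arrays; that of Actb was 1.19 to 1.22 and 1.15 to 1.25. The part of RNA quality in the result was not tested.

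**Figure D2:**
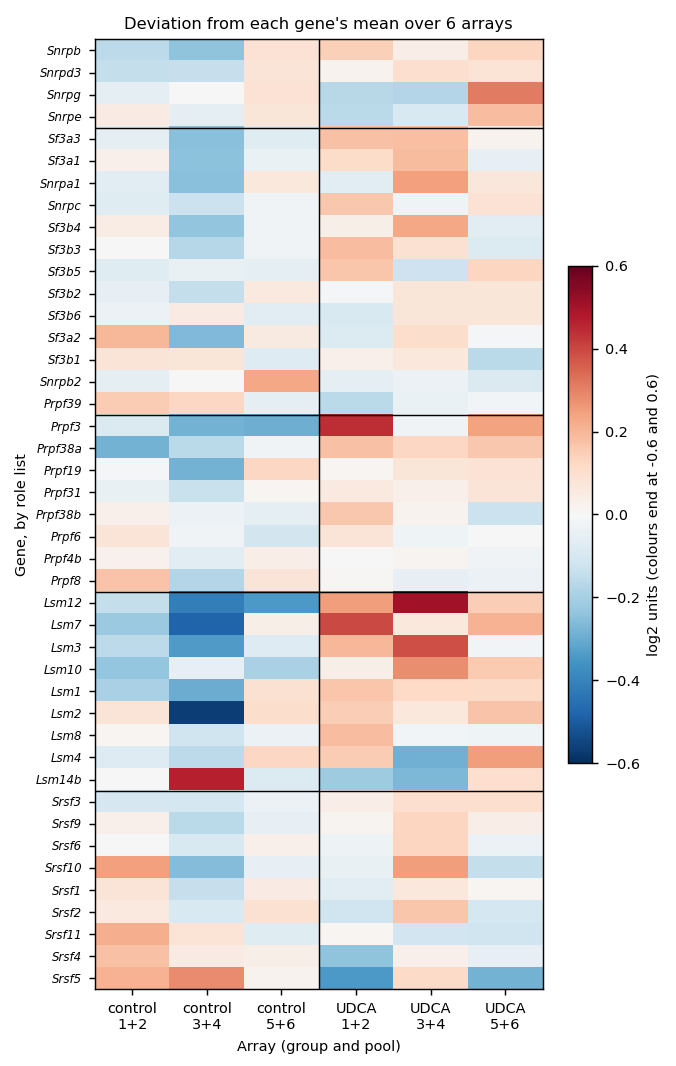
Deviation of each splicing gene from its own mean over the 6 arrays, in log2 units (colour), with genes in rows by role and arrays in columns. The column of control pool 3+4 is the lowest of the 6 for 24 of the 43 genes, and Lsm2 in that pool is among the darkest cells.

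LSm proteins form rings like those of the Sm proteins. A ring of LSm2 to LSm8 binds the end of U6 small nuclear RNA in the nucleus, and a ring in which LSm1 takes the place of LSm8 acts in mRNA decapping and decay in the cytoplasm. The LSm list had the highest median of the 5 role lists, a log2 fold change of 0.27 over 9 tested genes with 8 positive values. For 5 of the 9 the UDCA arrays lay above all control arrays, beside 11.1% of all genes. An unadjusted p under 0.05 in limma was reached by 4 of the 9, all higher, beside 7.28% of all genes on that side. After adjustment 0 passed. On the deposited scale 2 of the 9 were apart and 3 had an unadjusted p under 0.05, all higher. The shares of all genes were 3.61% and 4.7% there. These counts describe a list within a chosen gene set and were not tested against other lists. Without control pool 3+4 the list had a median of 0.19 and 2 genes with an unadjusted p under 0.05, and without UDCA pool 3+4 it had 0.27 and 2. In the upper 25% of probe sets by mean it held 3 genes with a median of 0.09, below the 0.12 of the U1 and U2 list.

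Lsm12, an LSm domain protein that lies outside both rings, had signals of 148, 119 and 126 in control pools 1+2, 3+4 and 5+6 and of 199, 240.3 and 184.5 in the UDCA pools in the same order. Every UDCA array was above every control array, also on the deposited scale. The means were 131 ± 14.8 and 208 ± 29.0 (SD, n = 3), a ratio of 1.58. The log2 fold change of 0.60 (SE 0.14, 95% interval 0.29 to 0.91) had an unadjusted p of 0.0019 and an adjusted p of 0.265 in limma.

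Lsm7, a subunit of both rings, had signals of 209, 172 and 253 in control pools and 329, 258 and 287 in UDCA pools. The groups did not overlap, though control pool 5+6 and UDCA pool 3+4 were close, and on the deposited scale they overlapped. Its log2 fold change was 0.44 (SE 0.15, adjusted p = 0.314 by limma). Lsm3, also shared by both rings, had 571, 501 and 604.5 in control pools and 734, 839.6 and 629.8 in UDCA pools. Here too the groups were apart after normalization and overlapped as deposited, with a log2 fold change of 0.38 (SE 0.13, adjusted p = 0.314 by limma). Lsm10, which belongs to the U7 snRNP that matures histone mRNA, had 129.6, 149 and 133 against 159, 191 and 174.5, apart on both scales, with a log2 fold change of 0.32 (SE 0.12, adjusted p = 0.322 by limma).

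The subunits that tell the rings apart were measured as well. Lsm1, of the cytoplasmic ring, had 201, 186 and 248 in control pools and 262, 253 and 253 in UDCA pools, groups that did not overlap and a log2 difference of 0.27 (SE 0.12, adjusted p = 0.384 by limma). Lsm8, of the nuclear ring, had 766, 699 and 742 against 865, 751 and 745, which overlapped, and a log2 fold change of 0.09 (SE 0.10, adjusted p = 0.686 by limma). The intervals were -0.02 to 0.55 and -0.14 to 0.33, and the difference between these genes was not tested.

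The shared subunits Lsm2 and Lsm4 had log2 fold changes of 0.25 (SE 0.18) and 0.07 (SE 0.15), both with overlapping groups. Lsm2 was at 177 in control pool 3+4 and between 282 and 305 on the other 5 arrays. Lsm14b, a protein of cytoplasmic mRNP granules, was the LSm gene with a negative value, -0.26 (SE 0.17); control pool 3+4, at 218.5, was its highest array, and the other 5 lay between 125 and 166. Lsm14a had signals from 0.2 to 4.8 and lay far below the filter.

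**Figure D3:**
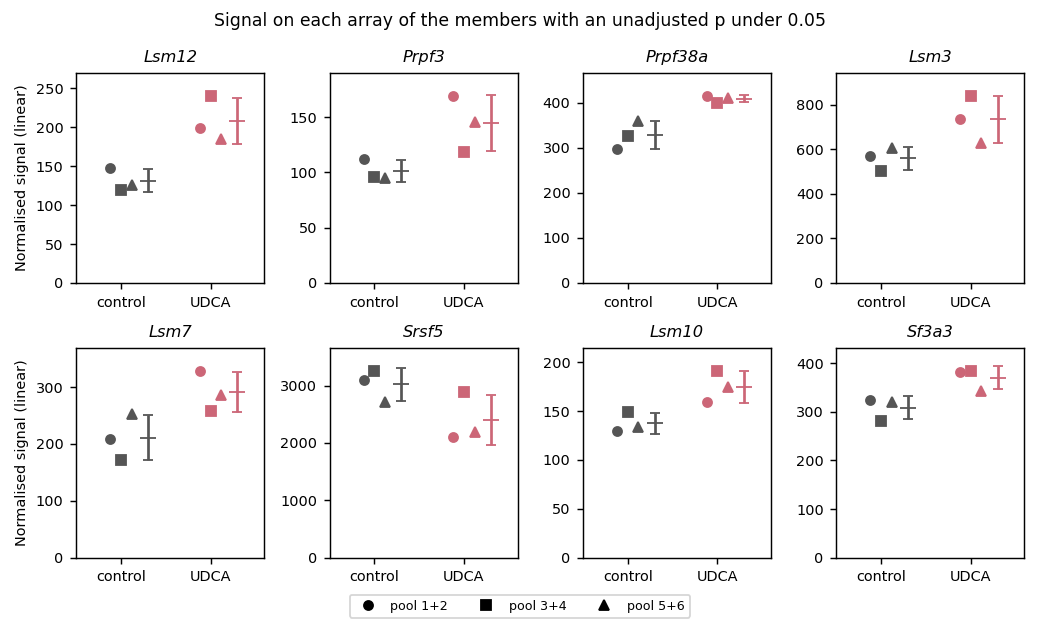
Normalised signal (linear, y axis from 0) on each array for the 8 splicing genes with an unadjusted p under 0.05 in limma; symbols mark the pools, and bars show the mean and SD of 3 arrays. The groups are apart for 7 genes, and for Srsf5 UDCA pool 3+4 (2893) lies above control pool 5+6 (2711).

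The promoters of 3 of these LSm genes and of Srsf5, the single gene with an unadjusted p under 0.05 on the lower side, are shown because they are the LSm genes with the smallest p-values that have a promoter in the table, beside the gene on the other side. They were picked after their values were seen; Lsm12 has no entry, and Prpf3, whose log2 fold change lies close to that of Lsm7, has a window with none of the 4 motifs searched. Each run is the 250 bases before the most upstream start of the gene, from RefSeq (GRCm38.p6), 5' to 3' on the strand of the gene. Capitals mark CCAAT (the CCAAT box), GGGCGG (a GC box), CACGTG (an E box) and CTTCCG (the core of ETS sites), each on either strand; pairs of neighbouring GC boxes in Lsm3 and in Lsm7 share a base.
Lsm3, chr6:91515785-91516034, plus strand: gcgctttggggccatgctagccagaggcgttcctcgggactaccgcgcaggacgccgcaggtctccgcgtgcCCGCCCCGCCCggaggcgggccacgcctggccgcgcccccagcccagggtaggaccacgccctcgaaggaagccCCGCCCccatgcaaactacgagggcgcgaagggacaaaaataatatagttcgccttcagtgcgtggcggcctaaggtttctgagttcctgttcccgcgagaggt
Lsm7, chr10:80855210-80855459, minus strand: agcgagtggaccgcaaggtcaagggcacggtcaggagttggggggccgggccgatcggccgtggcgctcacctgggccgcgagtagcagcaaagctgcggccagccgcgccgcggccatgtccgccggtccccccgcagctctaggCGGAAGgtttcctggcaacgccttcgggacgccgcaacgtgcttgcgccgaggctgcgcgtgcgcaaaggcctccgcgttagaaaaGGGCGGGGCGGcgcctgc
Lsm10, chr4:126096403-126096652, plus strand: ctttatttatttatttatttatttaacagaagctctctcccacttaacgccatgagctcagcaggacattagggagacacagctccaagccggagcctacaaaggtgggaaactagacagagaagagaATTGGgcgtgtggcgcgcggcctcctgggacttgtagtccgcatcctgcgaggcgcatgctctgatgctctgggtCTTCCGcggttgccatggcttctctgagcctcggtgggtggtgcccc
Srsf5, chr12:80945249-80945498, plus strand: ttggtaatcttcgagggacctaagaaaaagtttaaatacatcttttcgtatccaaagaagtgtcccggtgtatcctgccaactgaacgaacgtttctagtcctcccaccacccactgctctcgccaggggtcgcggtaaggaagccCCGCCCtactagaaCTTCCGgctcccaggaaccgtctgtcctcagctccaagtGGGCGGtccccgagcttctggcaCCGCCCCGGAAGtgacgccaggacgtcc
GC boxes stood in the windows of Lsm3, Lsm7 and Srsf5, ETS cores in those of Lsm7, Lsm10 and Srsf5, and a CCAAT box in that of Lsm10, and none of the 4 motifs was in all 3 LSm windows and missing from that of Srsf5.

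Over the 40 splicing genes with a promoter in the table, CTTCCG was found in 23 windows, 57.5%, beside 13.8% of all 27025 windows and 28.4% of the 5597 windows of genes above the filter. In the U1 and U2 list it was in 10 of 12 windows, among them those of Snrpc, Sf3a1, Sf3a3 and Sf3b1. It was in 5 of 8 windows of the tri-snRNP and Prp19 list, 2 of 4 of the Sm core, 4 of 9 of the SR proteins and 2 of 7 of the LSm list, where the share of 28.6% is that of genes above the filter. GGGCGG was in 62.5% of the splicing genes, 33.0% of all windows and 62.4% of the genes above the filter, CCAAT in 42.5%, 34.5% and 37.0%, and CACGTG in 5%, 6.04% and 9.08%. The median share of G and C was 60.6% in the splicing genes, 52.0% in all windows and 60.4% in the genes above the filter. A match of letters is a description and not a bound site, and these shares were not tested.

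Proteins of the Sm core, the ring around U1, U2, U4 and U5 RNA, gave 0.06 as the median log2 fold change of 4 tested genes, with 0 genes at an unadjusted p under 0.05 in limma; without UDCA pool 5+6 the median was -0.01. Snrpb, for the ring proteins SmB and SmB', had signals of 933, 882 and 1109 in control pools and 1152, 1073 and 1143 in UDCA pools, and Snrpd3, for SmD3, had 948, 948 and 1105 against 1061.5, 1125 and 1109. In both genes control pool 5+6 lay among the UDCA pools. Their log2 fold changes were 0.21 (SE 0.11, adjusted p = 0.416 by limma) and 0.14 (SE 0.10, adjusted p = 0.537 by limma).

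Snrpe, for SmE, had 3435, 3199 and 3495 in control pools and 2972.5, 3118 and 3784 in UDCA pools, and Snrpg, for SmG, had 1983, 2064 and 2189.8 against 1832, 1823 and 2559. In both, UDCA pool 5+6 was the highest and the other UDCA pools the lowest of the 6 arrays. The log2 fold changes were -0.04 (SE 0.10) for Snrpe and -0.02 (SE 0.13) for Snrpg, and both were positive on the deposited scale, 0.10 each. A second probe set of Snrpg had a log2 fold change of 0.18 (SE 0.11).

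Snrpn, an imprinted gene whose protein SmN replaces SmB mainly in the brain, had signals of 5.3, 5.2 and 3.6 in control pools and 17.3, 28.0 and 23.6 in UDCA pools. All of these lie far under 76.0, the signal at which the filter begins. With no filter the adjusted p of limma was 0.39, the smallest among the 46 genes in that fit. Other probe sets that list Snrpn together with Snurf name several genes and were left out by the rule.

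The median log2 fold change of the U1 and U2 list was 0.11 among 13 tested genes, 10 of them positive. Beside 7.28% of all genes, 1 of the 13 had an unadjusted p under 0.05 in limma on the higher side. That gene was Sf3a3, for a subunit of the SF3A complex that helps U2 bind the branch point. It had 324, 281 and 320.4 in control pools and 383, 385 and 342 in UDCA pools, groups that were apart after normalization and overlapped as deposited. Its log2 fold change was 0.25 (SE 0.11, adjusted p = 0.362 by limma). A second probe set of Sf3a3 had 0.11 (SE 0.13) with overlapping groups. The partner subunits Sf3a1 and Sf3a2 had 0.17 (SE 0.12) and 0.01 (SE 0.13), both with overlapping groups.

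The SF3B complex grips the branch point together with U2, and 6 of its genes fall under the symbol rule. Sf3b1, its largest subunit and a frequent target of mutation in human leukaemias, had 1398.5, 1395 and 1256 in control pools and 1352, 1384 and 1182 in UDCA pools. The log2 fold change of -0.05 (SE 0.10, 95% interval -0.27 to 0.17) was 0.09 on the deposited scale, and its other probe sets had -0.05 and -0.25. Sf3b2, Sf3b3, Sf3b4, Sf3b5 and Sf3b6 lay between 0.04 and 0.14, each with overlapping groups.

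Of the proteins of U1, Snrpc (U1-C, which steadies the pairing of U1 with the 5' splice site) had 641, 617.5 and 666 against 757, 663 and 718, overlapping groups and a log2 difference of 0.15 (SE 0.10, adjusted p = 0.511 by limma). Prpf39, a U1-associated protein, had 244, 239 and 209 against 193, 212 and 215, also overlapping, and -0.15 (SE 0.11, adjusted p = 0.560 by limma). The U2 proteins Snrpa1 and Snrpb2 had log2 fold changes of 0.16 (SE 0.12) and -0.12 (SE 0.11). A second tested probe set of Snrpb2 had 0.05 (SE 0.10), and one of Prpf39 had 0.02 (SE 0.20). The 3 probe sets of Snrpa1 were all positive, and 1 of them, with 318, 270.4 and 333 against 415, 367 and 393, had 0.34 (SE 0.11, adjusted p = 0.314 by limma). Prpf40b lay below the filter, with signals from 22.4 to 39.3.

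Among the 8 tested genes for tri-snRNP, activation and Prp19 proteins the median log2 fold change was 0.07. For 3 of them, Prpf3, Prpf38a and Prpf31, the UDCA arrays lay above all control arrays, beside 11.1% of all genes. Prpf3, which holds U4 and U6 together, had 112, 96.2 and 95.2 in control pools and 169, 119 and 145 in UDCA pools, apart also as deposited, with a log2 fold change of 0.44 (SE 0.15, adjusted p = 0.314 by limma). Prpf38a, which acts when the spliceosome is activated, had 298, 325 and 359.5 against 415, 400.0 and 411, apart after normalization and overlapping as deposited, with 0.31 (SE 0.11, adjusted p = 0.314 by limma).

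Prpf31, a U4 protein whose loss of 1 copy causes retinal degeneration in humans, had 183, 170.3 and 191 against 197, 193 and 199.9. The groups were barely apart, and its log2 fold change was 0.11 (SE 0.10, adjusted p = 0.636 by limma). Prpf8, the U5 protein at the catalytic centre, had 1315, 1031 and 1231 against 1169.6, 1127 and 1138, all 3 UDCA arrays within the control range. Its log2 fold change was -0.05 (SE 0.11, 95% interval -0.30 to 0.19), and 0.07 on the deposited scale. Prpf19, for a ubiquitin ligase that helps activate the spliceosome, had 770.0, 633 and 845 against 781, 814.5 and 824, overlapping groups and 0.11 (SE 0.12, adjusted p = 0.680 by limma). Prpf6, Prpf38b and the kinase gene Prpf4b had 0.04, 0.04 and -0.0014, with overlapping groups.

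SR protein genes differed from the LSm genes in their median, 0.01 over 9 tested genes, of which 5 were positive; the difference between the lists was not tested. The SR median was -0.08 with 3 positive values without control pool 3+4, -0.07 with 2 positive values without UDCA pool 3+4, and 0.14 on the deposited scale. Srsf5 had signals of 3094, 3262 and 2711 in control pools and 2099.8, 2893 and 2192.5 in UDCA pools. UDCA pools 1+2 and 5+6 lay below every control pool, and UDCA pool 3+4 lay within the control range. The means were 3022 ± 282 and 2395 ± 434 (SD, n = 3), a ratio of 0.792, and the log2 fold change of -0.34 (SE 0.13, 95% interval -0.64 to -0.05) had an unadjusted p of 0.027 and an adjusted p of 0.320 in limma. On the deposited scale it was -0.20.

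Srsf4 was the gene whose UDCA arrays lay below all control arrays, with 655, 599 and 594 in control pools and 486, 591 and 559.5 in UDCA pools. Control pool 5+6 and UDCA pool 3+4 were close, and as deposited the groups overlapped; the log2 fold change was -0.17 (SE 0.11, adjusted p = 0.488 by limma). Srsf11 had 1382, 1257 and 1128 against 1197, 1095.5 and 1090.5, overlapping groups and -0.15 (SE 0.10, adjusted p = 0.519 by limma), and its second probe set had -0.15 (SE 0.10) as well. On the deposited scale these were -0.02 and -0.08.

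Srsf3, one of the smallest SR proteins and also active in mRNA export, was on the other side. It had 1535, 1529.5 and 1604 in control pools and 1691, 1766 and 1764 in UDCA pools, apart after normalization and overlapping as deposited, with a log2 fold change of 0.16 (SE 0.08, adjusted p = 0.384 by limma). Its 5 other probe sets had overlapping groups and values from -0.07 to 0.19. Srsf1, the founding member of the family, had 2809, 2419 and 2752.5 against 2551, 2785 and 2689, and a log2 fold change of 0.01 (SE 0.08, 95% interval -0.18 to 0.20). Srsf2, which is concentrated in nuclear speckles, had 2954, 2665 and 3028 against 2610.0, 3183 and 2635, and -0.04 (SE 0.10), or 0.10 as deposited. Srsf10, an SR protein that can also repress splicing, had 586, 408 and 474 against 477, 587 and 443, and 0.04 (SE 0.16, adjusted p = 0.921 by limma). All 4 probe sets of Srsf10 were positive, and the others had 0.26 (SE 0.13), 0.17 (SE 0.15) and 0.21 (SE 0.15). For the one with 0.26 the groups were apart after normalization and overlapped as deposited. Srsf6 and Srsf9 had 0.04 and 0.12, with overlapping groups.

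Probe sets of 1 gene did not always point the same way. Of the 46 genes, 24 had more than 1 probe set, and for 20 of them more than 1 lay above the filter. In 10 of these 20 the probe sets had log2 fold changes of both signs, and the median range between them was 0.17. Srsf6 had the widest range, 0.33: the probe set used here had 0.04 (SE 0.08), and the others had -0.15 (SE 0.12) and -0.28 (SE 0.12, adjusted p = 0.363 by limma). SR protein genes give rise to several transcript forms, which probe sets at different places can report separately; which forms these probe sets report was not analysed here.

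Other genes of the pathway were listed by role. Of 61 listed spliceosome genes outside the symbol rule, 51 were measured and 50 tested, with a median log2 fold change of 0.04 and 33 positive values. None passed after adjustment in limma, and 3 higher and 0 lower had an unadjusted p under 0.05, where the shares of all genes are 7.28% and 7.1%, so the higher count is near that of all genes. Phf5a, for a small SF3B subunit, had 654, 641 and 729 against 853, 870.6 and 817 and a log2 fold change of 0.32 (SE 0.10, adjusted p = 0.301 by limma). Bud31, for a component of the active spliceosome, had 922, 915 and 966 against 1099, 1102 and 1097.5, with 0.23 (SE 0.08, adjusted p = 0.317 by limma). Isy1, of the Prp19-related complex, had 0.36 (SE 0.13, adjusted p = 0.317 by limma). The groups of Phf5a, Bud31 and Isy1 were apart after normalization and overlapped as deposited. Of the 50 genes, groups were apart for 8 higher and 2 lower, beside 11.1% and 8.64% of all genes.

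Of 16 listed genes for assembly of the Sm ring, 12 were measured and 11 tested, with a median of 0.14. Smn1, whose protein loads Sm proteins onto small nuclear RNA, had 166, 185 and 195 against 246, 245 and 213 and a log2 fold change of 0.34 (SE 0.11, adjusted p = 0.314 by limma). Prmt5, the enzyme that methylates Sm proteins, had 252, 234 and 286 against 329, 345 and 305, with 0.33 (SE 0.11, adjusted p = 0.314 by limma), and Ddx20, a helicase of the SMN complex, had 0.23 (SE 0.12, adjusted p = 0.429 by limma). All 3 had groups that did not overlap, but on the deposited scale the groups of each overlapped. Of the 11 genes, groups were apart for 3 higher and 1 lower, beside 11.1% and 8.64% of all genes. None of the 11 passed after adjustment by limma. An unadjusted p under 0.05 in limma was reached by 2, both higher, beside 7.28% of all genes on that side.

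The kinases that phosphorylate SR proteins had a median of 0.00 over 7 tested genes of 8. Clk1 had 1157, 1122 and 993 in control pools and 931, 824 and 854 in UDCA pools, all below the control arrays, with a log2 fold change of -0.32 (SE 0.10, adjusted p = 0.314 by limma). Clk2 was also below on all 3 arrays, with -0.20 (SE 0.10, adjusted p = 0.400 by limma), and Srpk1 had 0.20 (SE 0.13, adjusted p = 0.507 by limma) with overlapping groups. On the deposited scale the groups of Clk1 (-0.21) and Clk2 (-0.14) overlapped. Of the 7 kinase genes, groups were apart for 0 higher and 2 lower, beside 11.1% and 8.64% of all genes.

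Among hnRNP proteins, which bind introns and often oppose SR proteins, 24 of 27 listed genes were tested and 10 were positive. The list median of -0.05 became 0.07 when arrays were centred on their medians, while that of all genes went from 0.00 to 0.07. Of the 24 hnRNP genes 4 had an unadjusted p under 0.05 in limma, all lower, beside 7.1% of all genes on that side. After adjustment 0 of the 24 passed. Groups did not overlap for 1 gene higher and 6 lower, beside 11.1% and 8.64% of all genes. Ptbp3 had -0.40 (SE 0.13), Hnrnpdl -0.21 (SE 0.07) and Pcbp2 -0.25 (SE 0.09), with limma adjusted p-values of 0.314, 0.314 and 0.318 and groups that did not overlap. On the deposited scale Ptbp3 stayed apart with -0.28, while the groups of Hnrnpdl (-0.07) and Pcbp2 (-0.11) overlapped. The proliferation list, 16 tested genes of 18, had a median of -0.09 with 6 positive values. After centring its median was 0.02, beside 0.07 for all genes. In it Mki67, a marker of cycling cells, had 1919, 1364 and 1609 against 1157, 871 and 1296, with a log2 fold change of -0.56 (SE 0.17, adjusted p = 0.303 by limma), while Nusap1 and Top2a had -0.63 (SE 0.29) and -0.49 (SE 0.24) with overlapping groups. The values of the list ran from -0.63 to 0.41. Of its 16 genes, 0 higher and 1 lower had an unadjusted p under 0.05 in limma, beside 7.28% and 7.1% of all genes. Groups were apart for 0 higher and 1 lower, beside 11.1% and 8.64% of all genes. The part of cycling cells in the values of the splicing genes was not tested.

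**Figure D4:**
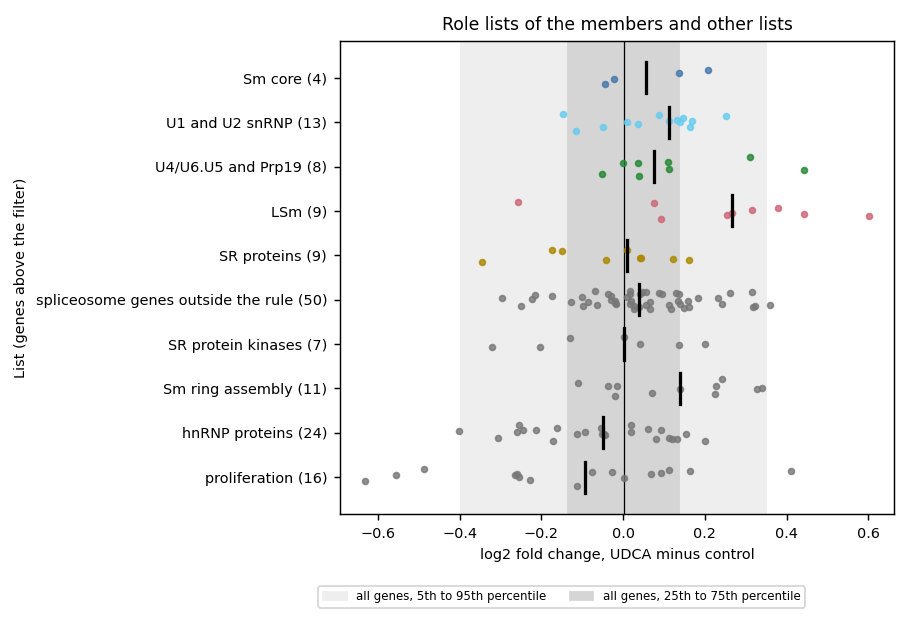
Log2 fold change (x axis) of each tested gene in the 5 role lists of the splicing genes (coloured) and in 5 other lists (grey), with the number of genes in brackets and the list median as a bar. Grey bands show the middle ranges of all 6770 genes, from -0.40 to 0.35 for the wider one; the LSm list has its median at 0.27 and the SR protein list at 0.01.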

How the data were processed

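Trizol was used to isolate RNA, and 3 µg of it went into biotin-labelled cRNA for Affymetrix arrays, per the labels' protocols. The authors deposited a linear intensity for every probe set, computed in the Affymetrix software GCOS, per the submitters' processing notes. The sources used here do not state its version or scaling target. Of 22690 probe sets, 64 Affymetrix controls were left out of the fit. Symbols came from the platform annotation: 20380 probe sets had 1 symbol, 691 several and 1555 none listed, and 8 probe sets that name a splicing gene among several symbols were not used. The deposited intensity values had 2% trimmed means from 236 to 332, so an earlier account of these files on the unscaled values was not followed.

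Intensities were quantile-normalised over 22626 probe sets and tested as log2(intensity + 16) with limma 3.58.1 in R 4.3.3 (lmFit, eBayes with an intensity trend, two-sided, Benjamini-Hochberg, threshold 0.05) on the upper 50% by mean, 11313 probe sets, which begins at a signal of 76.0. The procedure was run on simulated data with added changes larger than those of any splicing gene. That run therefore does not show whether changes of their size would be found. With 3 arrays a group, the smallest p of an exact permutation test is 0.1. Precision is bounded by having 6 arrays. Replicates are pools of different animals, with equal pool numbers in both groups that no label ties together. Deviations from the group means correlated between equal pool numbers at -0.10, 0.16 and 0.05, so the numbers were not taken as pairs.

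In each role list the 4 tested genes with the smallest p, the brightest and the dimmest are described with fold changes, and in every other list the 3 with the smallest p. Other genes named with values (Lsm1, Lsm2, Lsm8, Lsm14b, Sf3a2, the other Sf3b genes, Snrpa1, Snrpb2, Prpf4b, Prpf6, Prpf38b, Srsf1, Srsf6, Srsf9 and extra probe sets) were added after their values were seen, for their roles. The genes, lists and tests were chosen with earlier results of these data known. Alternatives were 3 other scalings, other pseudocounts and filters, other variance settings, array weights, a block, the mean of probe sets and each array left out. Promoters came from RefSeq. Protein sequences and the authors' table of group averages were not used here.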

Additional observations from a re-analysis of the deposited data

How the results depend on the processing

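No splicing gene passed an adjusted p of 0.05 in limma under any of the 18 alternatives. The smallest adjusted p of the 43 genes ranged from 0.128 (Lsm7, without control pool 5+6) to 0.698 (Lsm12, without control pool 1+2). On the deposited scale 4 genes had an unadjusted p under 0.05 on the higher side and 0 on the lower side, groups did not overlap for 3 and 0 genes (3.61% and 4.00% of all genes), and the median log2 fold change was 0.20. After median centring these were 10 and 0 genes at an unadjusted p under 0.05 (13.2% and 4.36% of all genes), 18 and 0 genes with groups that did not overlap (18.1% and 5.13% of all genes) and a median of 0.19; after scaling to a trimmed mean 5 and 0 genes had an unadjusted p under 0.05 (6.09% and 8.08% of all genes) and groups did not overlap for 8 and 2 (9.47% and 10.5%). Less the median of all genes, the splicing genes stood 0.09 above it after quantile normalization and 0.12 above it on each of these 3 scales. In the upper 25% by mean, which holds 34 of the genes, 3 had an unadjusted p under 0.05 on the higher side and 4 had separate, higher groups, close to the 7.06% and 11.2% of all genes there.

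With 1 array left out, the count at an unadjusted p under 0.05 was 4 to 7 higher and 0 to 1 lower, the groups were apart for 10 to 15 higher and 2 to 5 lower (14.3% to 20.7% and 10.7% to 19.1% of all genes, with fewer arrays to separate), and the median was 0.037 to 0.127; 0 genes passed after adjustment in each case. The higher count was 4 in place of 7 when any of pools 1+2 and 3+4 of either diet was left out, and the share of all genes was then 3.78% to 4.78% in place of 7.28%. The pool number as a replicate block changed no call: 0 splicing genes passed, 6 higher and 1 lower had an unadjusted p under 0.05, and the median was 0.09.

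Of 28 genes described by rule, 18 kept their sign under all alternatives that gave a value, among them the 8 with an unadjusted p under 0.05. The other 10, with values from -0.12 (Prpf40b) to 0.11 (Prpf19), changed sign in some. On the deposited scale and after centring these were Snrpe (0.10 and 0.093), Snrpg (0.10 and 0.097), Sf3b1 (0.086 and 0.078), Prpf8 (0.075 and 0.066) and Srsf2 (0.10 and 0.094). The median of all genes was 0.08 and 0.07 on these scales, beside 0.00 after quantile normalization. After trimmed mean scaling Snrpg had 0.0019, and with the mean of probe sets Snrpg had 0.080 and Srsf2 0.081. With 1 array left out, signs turned for Snrpe (0.027), Snrpg (0.011, 0.056 and 0.062), Sf3b1 (0.020), Prpf8 (0.023), Prpf19 (-0.00065), Srsf10 (-0.077 and -0.073), Srsf2 (0.0024 and 0.0074), Lsm4 (-0.031), Lsm14a (-0.019) and Prpf40b (0.0091). The cause of these changes was not tested.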
